A study of Mus musculus with 8 samples.

Results

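This comparison set the brain tumor of vehicle-treated mice against naive brain of vehicle-treated mice, gene by gene. It was formed by taking the 2 libraries labelled vehicle tumor and the 2 labelled vehicle naive, which are 4 of the 8 libraries of the series, over all 55414 genes of the count table. Of these genes, 24356 had enough counts to be tested. The model is a mouse supratentorial ependymoma that carries a ZFTA-RELA fusion. According to the labels, mice whose tumor had been seen by MRI were randomised and given either vehicle or the MERTK and FLT3 kinase inhibitor MRX-2843 by daily gavage for 5 days, and whole brains were taken 1 h after the last dose. All 4 libraries carry the genotype ZFTA-RELAfusion and a cell line entry that names the inhibitor, although they come from mice given vehicle only. Whether the mice that gave naive brain bore a tumor is not stated in the labels. They call the 2 libraries of a group duplicates without naming separate animals, and where a pair came from 1 animal its p-values measure technical spread alone. The column names carry the number 914 for both tumor libraries and the numbers 914 and 915 for the naive ones, and its meaning is not explained.

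ZFTA-RELA ependymoma arises in the forebrain when ZFTA, a zinc finger protein, is joined to RELA, the transactivating subunit of NF-kB. The fusion enters the nucleus without a stimulus, binds chromatin widely and turns on NF-kB targets together with genes outside that pathway, among them the cell cycle gene CCND1. The tumor cells are held to resemble radial glia, the neural stem cells of the developing forebrain, which also give rise to ependyma, the ciliated lining of the ventricles. Adult brain, in contrast, is mostly non-dividing neurons and glia, with myelin made by oligodendrocytes and immune surveillance by microglia.

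The vehicle libraries held 70147859 to 78084664 counts. Where a library had 0 counts of a gene, its level could still reach that of 3 counts, 0.0384 to 0.0428 CPM. Levels are given in CPM, counts relative to the library total after correction of that total by TMM (trimmed mean of M values), a method that assumes most genes to be alike between libraries. Library pairs were close, with Pearson's r of 0.994 in each group across 15755 genes and a median absolute log2 difference of 0.103 between the naive and 0.0981 between the tumor libraries. Counts of each pair differed by more than sampling noise, with a mean chi-square of 9.03 per gene in naive brain and 10.5 in tumor (medians 4.33 and 4.88). Each library was counted on its own, although this excess does not show that a pair came from separate animals. Mitochondrially encoded transcripts took 14.7 and 15.1% of the counts in naive brain and 3.26 and 3.37% in tumor. Y-linked Ddx3y had at least 2168 counts in every vehicle library, and Xist at most 193. The libraries labelled MRX-2843 tumor had neuron, antiviral and mitosis sums nearer to naive brain than to vehicle tumor. They enter the vehicle comparison only through the filter, the scaling and the estimate of spread, and without them 14683 genes differed in it.

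Genes are said to have risen or fallen in tumor where the Benjamini-Hochberg adjusted p of edgeR's quasi-likelihood test, over all genes tested, was under 0.05. By this rule 14626 genes (60.1% of those tested) differed, of which 7125 (29.3%) rose and 7501 (30.8%) fell. With a minimum absolute log2 fold change of 1, 4643 (19.1%) rose and 5153 (21.2%) fell, and 2004 rose and 2468 fell by at least 3 log2 units. The median log2 fold change over all genes tested was -0.03. Scaling by library totals alone moved that median by 0.24, to 0.21, and gave 8684 rises and 6192 falls. With that scaling Abcg1, Cd47, E2f1, Lama3, Myh11 and Zbtb46, named below for small falls, no longer passed. Rbfox3 and Slc1a3, also small falls, turned in direction with it and did not pass. The levels of the tumor libraries lay outside those of the naive libraries for 19600 genes (80.5%). They did so for each of the 294 genes that are named below and passed the test. For the genes named for the largest differences, the rule that picked them required this. A gene list with a share of changed members near these percentages is therefore not set apart by its count. Whole tissue was sequenced, so fewer cells of a type and less RNA per cell cannot be told apart. Where 2 CPM values are given as "from" and "to", they are the mean of the 2 naive and of the 2 tumor libraries, and fold changes are log2 values ± SE (n = 2 libraries a group).

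**Figure D1:**
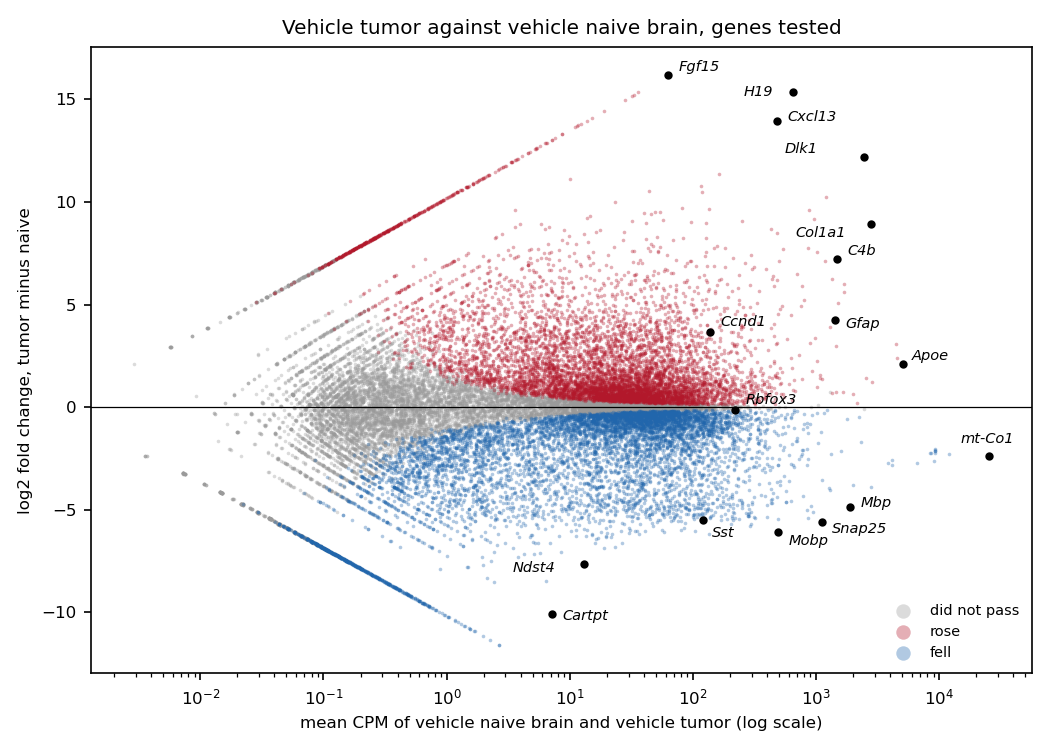
Mean CPM of the 2 groups (x axis, log scale) against the log2 fold change of vehicle tumor over vehicle naive brain (y axis) for the genes tested, 1 point a gene, red where it rose, blue where it fell, grey where it did not pass and black for named examples. Changes reach both directions at every level above about 1 CPM, and the 2 straight edges are genes with 0 counts in one of the groups, whose fitted values are not bounds.

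The 10 genes that gained most CPM were Clu, Apoe, Ckb, Col1a1, Dlk1, H2-D1, B2m, C4b, Gsn and H2-K1, which together took 0.428 and 0.449% of the naive counts and 5.68 and 5.54% of the tumor counts. Clu, a secreted chaperone of astrocytes, had 948 and 966 CPM in naive brain and 7902 and 8037 CPM in tumor. Apoe, the main lipid carrier of the brain, had 1873 and 1977 CPM in naive brain and 8593 and 7944 CPM in tumor. Both tumor libraries lay several times above both naive libraries for each of these genes. Dlk1 (ENSMUSG00000040856.18, chr12:109452823-109463336, GRCm38), an imprinted gene for a membrane protein of the Notch ligand type found in immature cells, had 1.32 and 0.775 CPM in naive brain and 4897 and 4903 CPM in tumor, a log2 fold change of 12.18 ± 0.12 (edgeR adjusted p = 1.1e-17). Col1a1 (ENSMUSG00000001506.11, chr11:94936224-94953042), which encodes a chain of type I collagen, had 11.6 and 11.2 CPM in naive brain and 5512 and 5534 CPM in tumor (8.92 ± 0.10). Gsn, which encodes the actin-severing protein gelsolin, went from 88.6 to 2934 CPM (5.05 ± 0.06), and Ckb, the brain creatine kinase, from 1446 to 7565 (2.39 ± 0.05).

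Among the genes that lost most CPM were Mbp, Meg3, Camk2a, Camk2n1, Snhg11, Snap25 and Kif5a. Mbp, the myelin basic protein gene, had 3672 and 3650.4 CPM in naive brain and 125 and 126 CPM in tumor. Camk2a, a kinase of excitatory synapses, had 2478 and 2424 CPM in naive brain and 144 and 149 CPM in tumor. Kif5a, a neuronal transport motor, went from 1756 to 62.6 CPM (-4.81 ± 0.05). The rule that picked these rises and falls took only genes whose groups did not overlap, so their separation is no further result.

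**Figure D2:**
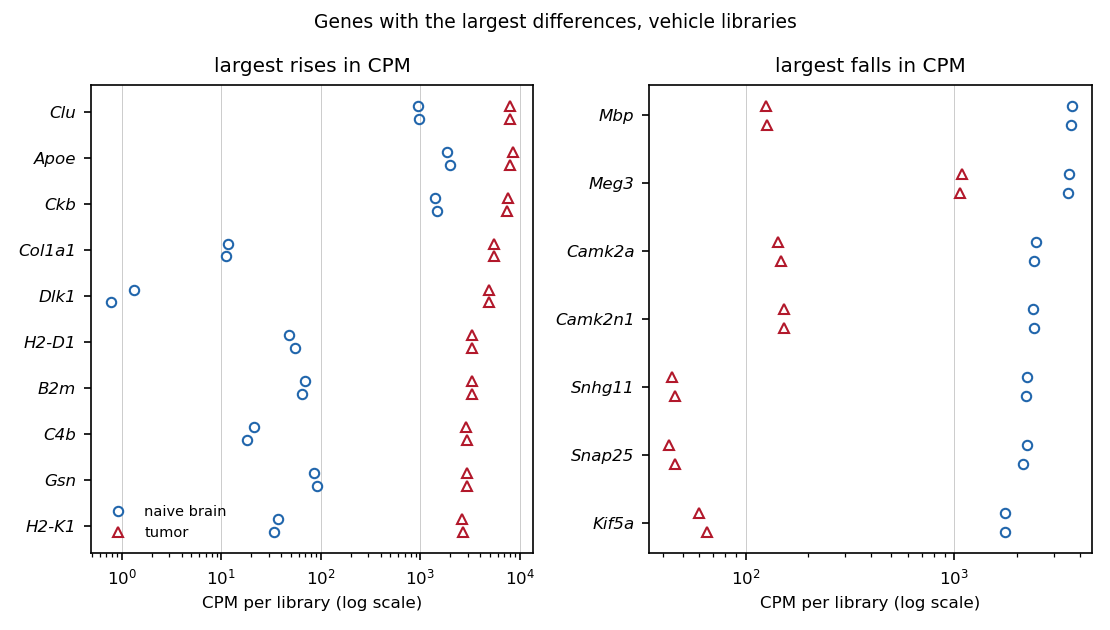
CPM in each vehicle library (x axis, log scale) of the 10 genes with the largest rises (left) and 7 of those with the largest falls (right) in mean CPM, with circles for the 2 naive and triangles for the 2 tumor libraries. The 2 libraries of a group lie close together. The groups stand apart for every gene, which the rule that picked these genes required, most widely for Dlk1 and Col1a1.

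Among genes with at least 10 counts in each vehicle library, the largest relative rises after Dlk1 were those of A2m, Fgf3, Col3a1, Mfap4, Col9a1, Igf2, Ifi27l2a, Col1a1 and H2-Q7. A2m, which encodes the protease inhibitor alpha-2-macroglobulin, went from 1.98 to 2406 CPM (10.24 ± 0.17), and Mfap4, a protein of elastic fibres, from 3.29 to 1905 (9.17 ± 0.17). Igf2, an imprinted fetal growth factor, had 0.316 and 0.417 CPM in naive brain and 191 and 196 CPM in tumor. At the other end were Ndst4, Hs3st2, Myo5b, Pcp4, Nptx2, Htr2c, Hs3st4, Resp18, Tac1 and Smim43. Htr2c, a serotonin receptor, had 30.9 and 33.1 CPM in naive brain and 0.393 and 0.34 CPM in tumor. Nptx2, a secreted protein that clusters AMPA receptors, went from 53 to 0.537 CPM (-6.62 ± 0.20). Myo5b, a motor for recycling vesicles, went from 46.4 to 0.401 (-6.85 ± 0.13), and Resp18, a protein of secretory granules, from 38.9 to 0.48 (-6.33 ± 0.14). 3 of the 10, Ndst4, Hs3st2 and Hs3st4, encode enzymes that sulfate heparan sulfate.

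The mouse genes of the fusion partners were both higher in tumor. Zfta had 49.6 and 47.6 CPM in naive brain and 287 and 289.9 CPM in tumor (2.57 ± 0.06), and Rela had 25.6 and 25.5 CPM in naive brain and 84.9 and 86.3 CPM in tumor (1.75 ± 0.10). Counts on these genes can include reads of the fusion transcript, and how reads of a human or mouse fusion sequence were assigned is not given in the sources used here.

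Ccnd1, the gene of cyclin D1, had 21.6 and 18.5 CPM in naive brain and 254 and 252 CPM in tumor (3.66 ± 0.09). It lies at chr7:144929931-144939925 on the minus strand, next to 3 genes for fibroblast growth factors. Fgf3 (start at -102 kb from that of Ccnd1) had 0.517 and 0.149 CPM in naive brain and 269 and 273 CPM in tumor. Fgf4 (-92.6 kb) had 0 counts in both naive libraries and 36.1 and 39.7 CPM in tumor, at least 1727-fold higher. Fgf15 (-43.4 kb), which is made in the embryonic brain, had 0 counts in both naive libraries and 121 and 131 CPM in tumor, at least 5760-fold higher. These bounds set the naive group at 3 counts over its libraries. Of the 19 genes with a start within 1 Mb of Ccnd1 that were tested, of 29 annotated there, 14 rose and 3 fell. Ano1, a chloride channel, went from 2.37 to 9.33 CPM (1.97 ± 0.26), Fadd, an adaptor of death receptors, from 2.72 to 13.5 (2.31 ± 0.26), Tpcn2, a lysosomal channel, from 5.16 to 24.8 (2.26 ± 0.18) and Mrgprf from 1.31 to 13.4 (3.35 ± 0.35). LTO1, which overlaps Ccnd1 on the other strand, rose by 0.96 ± 0.13, Cttn by 0.37 ± 0.06 and Ppfia1 by 0.31 ± 0.08. Ppfia1 lost its call without tumor replicate 2 (edgeR adjusted p = 0.066). Shank2, a scaffold of excitatory synapses, fell from 148 to 5.47 CPM (-4.76 ± 0.11), as did Bc1, a neuronal non-coding RNA, from 9 to 0.579 (-3.95 ± 0.22), and Smim38 (-2.52 ± 0.67), which lost its call without naive replicate 1 (0.052). The genes Gm26793, Gm39119 and Faddos, annotated as antisense, also rose. Faddos lost its call with any 1 vehicle library left out (adjusted p = 0.13 to 0.17) and Gm39119 with DESeq2 (0.31). Whether counting used strand is not given in the sources used here, so reads of overlapping and antisense genes cannot be told apart.

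**Figure D3:**
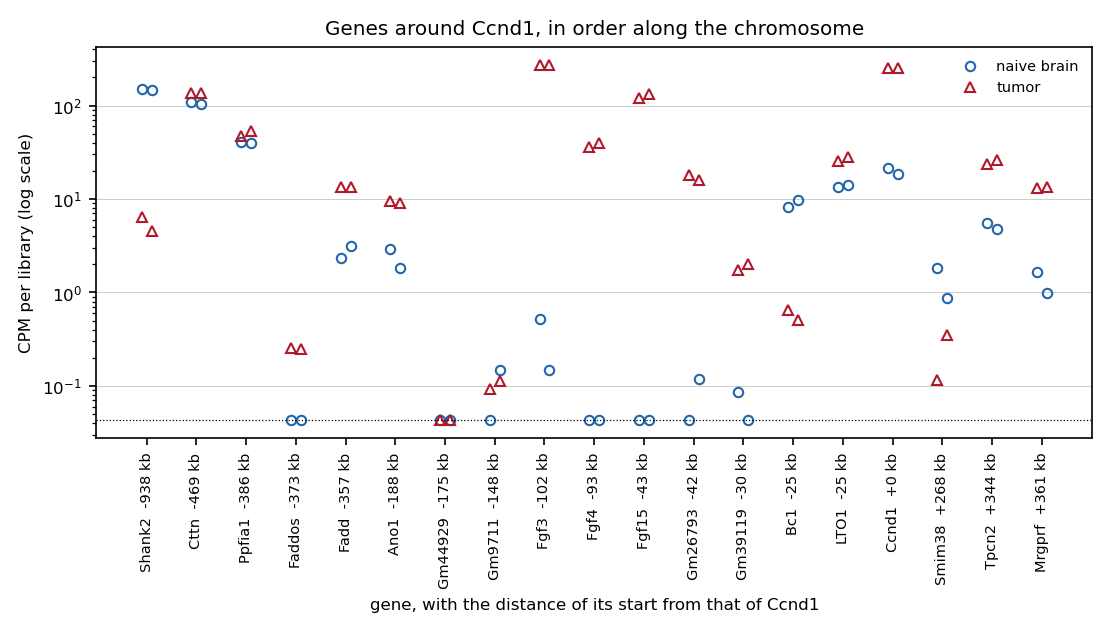
CPM in each vehicle library (y axis, log scale) of the 19 tested genes within 1 Mb of Ccnd1, in order along the chromosome, with the distance of each start in kb. Values at or under 3 counts are drawn at the dotted line. Triangles (tumor) stand far above circles (naive brain) for Fgf3, Fgf4, Fgf15 and Ccnd1, and below them for Shank2, Bc1 and Smim38.

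Gene lists were described by their counts of members that rose and fell and by the median log2 fold change of those tested, which were 1471 of 1511 listed genes. A gene at or near 0 in one vehicle group could enter the test through its counts in another group, the MRX-2843 groups included. Where those were counts of the other vehicle group, the filter favoured a difference. Ifng, with 0 counts in naive brain, did not pass, but it passed with only the 4 vehicle libraries (edgeR adjusted p = 0.015). How far the filter shaped the counts of rises was not tested. Genes that cells switch on in response to interferon were higher in tumor. All 24 antiviral interferon-stimulated genes rose, with a median of 6.64, against rises in 29.3% of all genes tested, and all 16 interferon-inducible GTPases rose, with a median of 5.65. Ifit3, which acts with Ifit1 against foreign RNA, had 9.7 and 11.4 CPM in naive brain and 877 and 883 CPM in tumor (6.39 ± 0.10). Irf7, the transcription factor that amplifies type I interferon, had 3.88 and 3.07 CPM in naive brain and 584 and 586 CPM in tumor (7.39 ± 0.13). Zbp1, a sensor of Z-form nucleic acid chosen for its size after its value was seen, went from 0.188 to 162 CPM (9.73 ± 0.19). The smallest rise of the list was that of Cmpk2, from 18.6 to 72.4 (1.96 ± 0.10). Among the GTPases, which attack vacuoles of intracellular microbes, Gbp2 had 2.91 and 2.77 CPM in naive brain and 138 and 148 CPM in tumor, Gbp3 went from 5.25 to 261 CPM and Iigp1 from 1.37 to 179. Summed over the antiviral list, naive brain had 137 and 134 CPM and tumor had 5813 and 5851 CPM.

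Some promoters of these genes carry letters that interferon-activated factors bind. The stretch of 150 bases before the RefSeq start (GRCm38.p6) is shown for 4 of them, with each match to the interferon-stimulated response element, searched on both strands as GAAA, any 2 bases and GAAA, in capitals. Isg15 lies at chr4:156200819-156200968 (minus strand), Ifit1 at chr19:34640739-34640888 (plus), Gbp2 at chr3:142620513-142620662 (plus) and Gbp3 at chr3:142559894-142560043 (plus).
Isg15: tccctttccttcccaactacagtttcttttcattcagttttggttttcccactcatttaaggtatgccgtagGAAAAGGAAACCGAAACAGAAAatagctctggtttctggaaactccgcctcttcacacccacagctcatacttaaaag
Ifit1: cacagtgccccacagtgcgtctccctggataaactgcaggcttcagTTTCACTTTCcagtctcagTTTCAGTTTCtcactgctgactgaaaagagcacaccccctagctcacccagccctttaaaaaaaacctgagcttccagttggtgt
Gbp2: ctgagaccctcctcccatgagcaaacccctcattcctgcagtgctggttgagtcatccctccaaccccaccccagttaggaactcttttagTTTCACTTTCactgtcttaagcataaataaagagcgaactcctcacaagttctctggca
Gbp3: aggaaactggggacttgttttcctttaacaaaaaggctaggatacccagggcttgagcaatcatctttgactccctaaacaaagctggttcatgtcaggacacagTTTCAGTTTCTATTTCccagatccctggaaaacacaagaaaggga
In Isg15 3 overlapping matches begin 78, 72 and 66 bases before the start, in Ifit1 2 matches begin at 104 and 85, in Gbp2 1 begins at 59, and in Gbp3 2 overlapping ones begin at 45 and 39. Where the element lies on the other strand, it reads in the printed sequence as TTTC, any 2 bases and TTTC. In windows from 250 bases before to 50 after a start, the element was found in 9 of 17 antiviral genes with a window (52.9%), in 9 of 10 GTPase genes (90%) and in 4 of 15 genes of class I presentation (26.7%), against 1079 of all 27025 genes (3.99%). In the other lists searched, it was found in 3 of 18 chemokine genes (16.7%), 1 of 20 mitosis genes (5%) and 0 of 17 NF-kB genes. Isg15, a ubiquitin-like modifier, had 1.28 and 2.06 CPM in naive brain and 360.5 and 367 CPM in tumor (7.77 ± 0.15), and Ifit1 had 2.56 and 2.38 CPM in naive brain and 288 and 299.9 CPM in tumor (6.89 ± 0.14). A match is a description of these letters and was not tested for binding.

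Antigen presentation genes rose with them. All 17 genes of MHC class I presentation rose (median 5.62), and their summed level was 279 and 271 CPM in naive brain and 13929.8 and 13867 CPM in tumor. H2-K1 had 37.2 and 33.8 CPM in naive brain and 2638 and 2664 CPM in tumor, and B2m, whose product pairs with every class I heavy chain, had 69.3 and 64.9 CPM in naive brain and 3329 and 3286 CPM in tumor (5.62 ± 0.06). H2-Q4 went from 5.35 to 615 CPM (6.84 ± 0.10). Members of the H2 family are near-identical copies in parts, so reads could be split between them by the authors' counting. Of 12 genes of class II presentation, 11 rose (median 4.41). Cd74, the invariant chain, had 3.8 and 5.2 CPM in naive brain and 333 and 339 CPM in tumor (6.22 ± 0.12), Ctss, the protease that trims it, went from 53.5 to 1201 CPM (4.49 ± 0.06), and H2-Ab1 from 1.35 to 187 (7.12 ± 0.14). H2-Eb2 did not pass, with 0.144 and 0 CPM in naive brain and 1.36 and 0.34 CPM in tumor.

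Chemokines, the signals that draw leukocytes, were mostly higher. Of 25 ligands 20 rose and 2 fell (median 5.52, or 5.16 with the 3 genes at 0 counts in a group set at their bound). Among them, 7 had under 10 counts in each library of a vehicle group. Cxcl13, which attracts B cells, had 0.115 and 0 CPM in naive brain and 945 and 968 CPM in tumor. Cxcl10, an interferon-induced ligand, had 0.115 and 0.179 CPM in naive brain and 53.4 and 57.2 CPM in tumor (8.55 ± 0.34), and Ccl12 went from 0.48 to 64.5 CPM (7.06 ± 0.22). Cx3cl1, the neuronal ligand of the microglial receptor Cx3cr1, fell from 573 to 75.1 CPM (-2.93 ± 0.05) and Ccl25 from 10.2 to 5.15 (-0.99 ± 0.22). Ccl17, Cxcl1 and Cxcl5 did not pass, with means from 1.87 to 2.1, from 0.0872 to 0.732 and from 0.44 to 0.506 CPM. With only the 4 vehicle libraries Cxcl1 rose (edgeR adjusted p = 0.010). Of 15 chemokine receptors 11 rose, 1 fell, 2 did not pass and 1 had too few counts. Among the 14 tested, 5 had under 10 counts in each library of a vehicle group. Cx3cr1 had 44 and 43.2 CPM in naive brain and 231 and 234 CPM in tumor (2.42 ± 0.06), and Cxcr4 went from 0.97 to 14.6 CPM. The receptor that fell was Ackr1, a chemokine scavenger of venules and erythrocytes, from 56.8 to 16.3 CPM (-1.80 ± 0.10).

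Complement genes rose in 18 of 20 cases (median 4.36). C4b, a component of the classical pathway, had 21.5 and 18.2 CPM in naive brain and 2906 and 2955 CPM in tumor (7.20 ± 0.08), and C1qa, made by microglia, had 54.5 and 57.2 CPM in naive brain and 811 and 785 CPM in tumor (3.84 ± 0.06). C3, the central component, chosen after its value was seen, had 0.0574 and 0.209 CPM in naive brain and 227 and 237 CPM in tumor. The 2 that fell were Cfp, the stabiliser properdin, from 17.7 to 8.26 CPM (-1.10 ± 0.15), and the inhibitor Cd55, from 4.38 to 1.86 (-1.24 ± 0.30). In the Toll-like receptor pathway 17 of 19 genes rose (median 3.54), among them Tlr2, with 0.632 and 0.417 CPM in naive brain and 102 and 104 CPM in tumor, the trafficking protein Unc93b1, from 16.5 to 204 CPM (3.63 ± 0.09), and the adaptor Ticam1, from 4.09 to 50.6 (3.63 ± 0.15). Tlr5 and Tlr8 did not pass, with means from 0.487 to 0.631 and from 0.115 to 0.682 CPM. Of 18 immune checkpoint genes 11 rose, 4 fell and 3 did not pass. Lgals9 had 6.66 and 9.58 CPM in naive brain and 446 and 465 CPM in tumor (5.81 ± 0.12), Lag3 went from 7.31 to 98.8 CPM and Vsir from 26.5 to 185. Sirpa and its partner Cd47, both abundant on neurons, fell from 389 to 259 and from 215 to 166 CPM, and Ido1 fell from 0.985 to 0.195. Vtcn1 fell to 0 counts, from 0.267 CPM. Pdcd1lg2, Ctla4 and Tigit did not pass.

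Markers of the immune cells that brain tissue can hold moved in the same libraries, and their part in the interferon, antigen presentation and chemokine results was not tested. All 12 markers of homeostatic microglia rose (median 2.73), with summed levels of 311 and 306 CPM in naive brain and 2350.4 and 2415 CPM in tumor. Tmem119, which is specific to microglia in brain, had 30.8 and 29.4 CPM in naive brain and 379 and 371 CPM in tumor (3.64 ± 0.08), and Olfml3 went from 18.3 to 259.9 CPM. Of 14 monocyte and macrophage markers 12 rose (median 3.44). Lyz2, lysozyme of myeloid cells, had 7.19 and 8.16 CPM in naive brain and 202 and 206 CPM in tumor (4.73 ± 0.11), and the Fc receptor Fcgr1 went from 3.65 to 96.9 CPM (4.73 ± 0.21). Chil3 and Lyve1 did not pass, with means from 0.101 to 0.324 and from 1.13 to 1.04 CPM. T and NK cell markers rose in 16 of 20 cases (median 4.61, or 4.44 with 7 genes at 0 counts in a group set at their bound), at a summed level of 9.04 and 9.01 CPM in naive brain and 48.0 and 48.9 CPM in tumor. With DESeq2 13 of them rose. Under 10 counts in each library of a vehicle group were seen for 12 of the 20, so the filter could favour a difference there. Gzmb, a granzyme, had 0 counts in naive brain and 4.97 and 4.84 CPM in tumor, at least 224-fold higher, and Nkg7 likewise 4.02 and 3.81 CPM, at least 179-fold higher. Cd8a had 0.115 and 0.0298 CPM in naive brain and 5.94 and 5.54 CPM in tumor. Cd4, Zap70, Gzmk and Ifng did not pass, and Cd4 had 3.09 and 2.62 CPM in naive brain and 2.2 and 2.54 CPM in tumor. Of 10 B and plasma cell markers 8 rose (median 5.20, or 4.07 with 3 genes at their bound), such as Igkc, from 0.769 to 65.9 CPM (6.42 ± 0.17), Ighm, from 14.8 to 43, and Jchain, from 1.53 to 15.8. Cd79a and Mzb1 did not pass. Of this list 5 members had under 10 counts in each library of a vehicle group. With either naive library or tumor replicate 1 left out, 5 B cell markers rose. Dendritic cell markers were mixed, with 4 rises, among them Itgax from 0.325 to 26.9 CPM and Xcr1 from 0.0287 to 4.29, 2 falls, Flt3 and Zbtb46, and 4 genes that did not pass. Zbtb46 lost its call without naive replicate 1 (edgeR adjusted p = 0.12) or tumor replicate 1 (0.13). Of 10 neutrophil markers 6 had too few counts to be tested and only Csf3r, which microglia also express, rose, from 8.09 to 64.7 CPM. S100a8, S100a9 and Camp did not pass.

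Genes of the lysosome, where phagocytes and other cells degrade what they take up, rose in 22 of 22 cases (median 2.91). Ctsd, cathepsin D, had 183 and 179.8 CPM in naive brain and 1573 and 1621 CPM in tumor (3.14 ± 0.05), and Lgmn, legumain, had 97.5 and 101 CPM in naive brain and 855 and 867 CPM in tumor (3.12 ± 0.05). Of 20 genes of lipid handling 16 rose (median 2.33). Lrp1, a receptor for Apoe and A2m, had 323 and 334 CPM in naive brain and 2510.0 and 2615 CPM in tumor (2.96 ± 0.05), and Apod went from 218 to 1244 CPM (2.51 ± 0.06). The cholesterol exporter Abcg1 fell, from 62.9 to 47.2 CPM (-0.41 ± 0.08), and Apoa1 and Pltp did not pass. Without naive replicate 1, Apoa1 also fell (edgeR adjusted p = 0.044).

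Most of the listed genes of DNA copying and mitosis rose. All 22 mitosis genes rose (median 4.65), with summed levels of 29.2 and 28.5 CPM in naive brain and 501 and 503 CPM in tumor. Mki67, the proliferation marker, had 1.18 and 1.74 CPM in naive brain and 74.3 and 75.1 CPM in tumor (5.68 ± 0.19). Top2a, the topoisomerase that untangles chromosomes, had 0.287 and 0.894 CPM in naive brain and 75.5 and 77.5 CPM in tumor (7.02 ± 0.28), and Cdk1, the mitotic kinase, had 0.23 and 0.238 CPM in naive brain and 29.1 and 29 CPM in tumor (6.95 ± 0.34). Of 23 genes of replication 20 rose and none fell (median 2.45). The helicase subunit Mcm3 had 4.11 and 3.64 CPM in naive brain and 40.7 and 44.8 CPM in tumor (3.46 ± 0.15), Mcm6 went from 7.54 to 49.4 CPM, and Pcna, the sliding clamp, from 33.3 to 108 (1.70 ± 0.07). Gmnn, Orc1 and Orc6 did not pass, with means from 4.53 to 6.25, from 1.02 to 1.17 and from 19.5 to 18.8 CPM.

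Promoters of mitosis genes often hold the cell cycle homology region, the letters TTTGAA, through which these genes are silenced in resting cells. The 150 bases before the RefSeq start (GRCm38.p6) of Cdk1 (chr10:69352913-69353062, minus strand) and Mki67 (chr7:135716380-135716529, minus strand) are shown with these letters, searched on both strands, in capitals.
Cdk1: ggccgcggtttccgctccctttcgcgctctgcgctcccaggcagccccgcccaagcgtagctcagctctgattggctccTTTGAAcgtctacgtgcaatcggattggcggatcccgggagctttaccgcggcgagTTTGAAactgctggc
Mki67: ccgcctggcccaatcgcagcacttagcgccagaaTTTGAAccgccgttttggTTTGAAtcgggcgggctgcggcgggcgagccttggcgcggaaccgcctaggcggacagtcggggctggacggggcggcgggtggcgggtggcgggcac
Cdk1 has matches 71 and 15 bases before its start, and Mki67 has them at 116 and 98. In the windows of 250 bases before to 50 after a start, 14 of 20 mitosis genes held TTTGAA (70%), against 5466 of all 27025 genes (20.2%). CCAAT, read by the factor NF-Y, was held by 16 of those 20 (80%) against 41.1% of all genes. Among the other lists searched, 12 of 15 genes of class I presentation (80%) held CCAAT and 5 of 10 GTPase genes (50%) held TTTGAA.

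In the axis that decides entry into the cycle, 18 of 22 genes rose and 1 fell (median 2.60). Beside Ccnd1, Ccnd3 had 19.6 and 15.9 CPM in naive brain and 412 and 424 CPM in tumor (4.56 ± 0.11). Cdkn1c, an imprinted inhibitor of cyclin-dependent kinases that restrains the cycle, had 7.78 and 6.62 CPM in naive brain and 986 and 989 CPM in tumor (7.10 ± 0.12). Genes for G1 cyclins and for an inhibitor of their kinases rose side by side. E2f1, an activator of S phase genes, fell from 19.2 to 14.8 CPM (-0.38 ± 0.14), a call that was lost with DESeq2 and without naive replicate 2, tumor replicate 1 or tumor replicate 2 (adjusted p = 0.052, 0.31, 0.070 and 0.13). Genes that did not pass were Ccne1, Ccne2 and Cdkn2d, with means from 19.1 to 20.3, from 6.01 to 6.44 and from 46 to 41.9 CPM. Of 20 genes of Polycomb complexes and DNA methylation 10 rose and 5 fell (median 0.33), falls being no more frequent than over all genes tested (30.8%). Uhrf1, which recruits the maintenance methyltransferase, went from 1.33 to 72.6 CPM (5.78 ± 0.27), Ezh2, the Polycomb methyltransferase of dividing cells, from 4.66 to 25.2 (2.43 ± 0.15), and its homologue Ezh1 did not pass, from 59.5 to 60.3. Cbx7 fell from 60.7 to 20.6 CPM (-1.56 ± 0.08) and Tet2 from 47.5 to 24.1 (-0.98 ± 0.08).

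Growth factor genes split by member. Of 21 FGF ligands 5 rose and 11 fell, 2 did not pass and 3 had too few counts, with a median of -2.41. Among the 18 tested, 5 had under 10 counts in each library of a vehicle group. The risers were Fgf3, Fgf4 and Fgf15 near Ccnd1, Fgf2, from 5.16 to 20.5 CPM (1.99 ± 0.18), and Fgf1, from 9.63 to 17.3 (0.85 ± 0.15). The intracellular FGFs of neurons fell, with Fgf12 at 95.6 and 96.5 CPM in naive brain and 3.84 and 3.18 CPM in tumor (-4.78 ± 0.10) and Fgf13 from 113 to 6.28 (-4.17 ± 0.11), as did the secreted Fgf9, from 16.5 to 0.792 (-4.38 ± 0.23). Fgf5, chosen after its value was seen, had 2.7 and 2.52 CPM in naive brain and 0 CPM in both libraries of tumor, at least 152-fold lower. Among 36 receptor tyrosine kinases 22 rose and 9 fell (median 1.41). Fgfr1 had 56 and 56.5 CPM in naive brain and 462 and 463 CPM in tumor (3.04 ± 0.07). Csf1r, on which microglia depend, went from 76.4 to 567 CPM (2.89 ± 0.07) and Axl from 35.5 to 991 (4.80 ± 0.06). Fgfr3, Met, Igf1r and Musk did not pass, and Fgfr3 had 101 CPM in each library of naive brain and 115 and 107 CPM in tumor. Ltk fell from 43 to 1.47 CPM (-4.87 ± 0.17), the neurotrophin receptor Ntrk3 from 117 to 31.8 (-1.87 ± 0.07) and Tyro3 from 251 to 153 (-0.71 ± 0.05). Of 35 ligands of such receptors 16 rose, 9 fell and 8 did not pass. Falls among these receptors and their ligands were no more frequent than over all genes tested (30.8%). Csf1, a ligand of Csf1r, rose from 21.9 to 179 CPM (3.03 ± 0.07), while its other ligand Il34, made by neurons, fell from 60.6 to 26.6 (-1.19 ± 0.08). Nrg2 rose from 9.31 to 116 (3.64 ± 0.11) and Nrg3 fell from 25.3 to 0.913 (-4.78 ± 0.22). Of 20 imprinted growth genes 11 rose and 8 fell. Ndn, a neuronal growth suppressor, had 199 and 204 CPM in naive brain and 9.94 and 12.1 CPM in tumor (-4.19 ± 0.08), and Peg3 fell from 263 to 79.7 CPM (-1.72 ± 0.06). Dlk1 and Meg3, which lie in one imprinted cluster, moved in opposite directions, Meg3 with 3546 and 3508 CPM in naive brain and 1088 and 1072 CPM in tumor (-1.71 ± 0.03).

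Of 21 genes for NF-kB subunits, inhibitors and kinases 18 rose and 1 fell (median 1.75). Nfkb1, the p105 precursor, had 16.5 and 17.7 CPM in naive brain and 94.6 and 96.6 CPM in tumor (2.48 ± 0.09). Bcl3, a nuclear partner of NF-kB, went from 1.02 to 47.6 CPM (5.53 ± 0.28), and Ikbke, a kinase of the interferon and NF-kB routes, had 2.58 and 1.74 CPM in naive brain and 253 and 259 CPM in tumor (6.88 ± 0.22). Cyld, a deubiquitinase that dampens the pathway, fell from 113 to 40.8 CPM (-1.47 ± 0.06), and Nfkbid and Chuk did not pass. The site of NF-kB, searched on both strands as GGGA, any 1 base and TTTCC, was found in the window of 3 of 17 genes of this list (17.6%) and of 2 of 18 chemokine genes (11.1%), against 126 of all 27025 (0.466%). It is shown in the 150 bases before the RefSeq start (GRCm38.p6) of Nfkbia (chr12:55492648-55492797, minus strand), the inhibitor that NF-kB itself induces, and Cxcl2 (chr5:90903749-90903898, plus strand), a chemokine for neutrophils.
Nfkbia: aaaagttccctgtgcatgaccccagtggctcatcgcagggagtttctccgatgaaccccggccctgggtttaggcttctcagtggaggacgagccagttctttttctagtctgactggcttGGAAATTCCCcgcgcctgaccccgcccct
Cxcl2: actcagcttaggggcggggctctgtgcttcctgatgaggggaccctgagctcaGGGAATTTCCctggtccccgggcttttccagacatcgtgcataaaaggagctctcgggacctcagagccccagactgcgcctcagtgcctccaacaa
The match in capitals begins 29 bases before the start of Nfkbia, where it is on the other strand, and 97 bases before that of Cxcl2. The site was also found for Cyld, which fell, for Cxcl1, which did not pass, and for another gene of the NF-kB list that rose. In the other lists searched, it was held by 1 of 10 GTPase genes (10%) and 1 of 15 genes of class I presentation (6.67%). It was held by 1 of 20 mitosis genes (5%) and 0 of 17 antiviral genes. These shares rest on 3 genes or fewer, those of the NF-kB and chemokine lists included. Nfkbia, chosen for its promoter, had 25.9 and 23.7 CPM in naive brain and 46.8 and 50.3 CPM in tumor (0.97 ± 0.10). Cxcl2 had 0 counts in both naive libraries and 1.48 and 1.50 CPM in tumor, at least 67.9-fold higher.

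Notch pathway genes rose in 12 of 18 cases and fell in 3 (median 1.08). The glycosyltransferase Lfng had 21.5 and 19.3 CPM in naive brain and 313 and 293 CPM in tumor (3.89 ± 0.08), and Notch1 went from 9.39 to 100.2 CPM and Notch2 from 12.2 to 91.9. The ligand Jag2 fell from 65.7 to 15.7 (-2.06 ± 0.07), and Hes5, a Notch target in radial glia, fell from 9.3 to 1.17 (-2.99 ± 0.21). Of 46 Wnt genes 23 rose and 11 fell (median 0.87). The receptors Fzd1, from 7.15 to 97.7 CPM, and Lrp5, from 9.51 to 119.8, rose with the secreted inhibitor Sfrp1, from 10.1 to 82.2. Fzd3 fell from 75 to 17.7, and the ligands Wnt7b and Wnt9a fell from 49.7 to 8.49 and from 13.1 to 1.52 CPM. Of 43 genes of the TGF-beta and BMP pathway 26 rose and 10 fell (median 0.96). Tgfbr2 had 10.4 and 11.2 CPM in naive brain and 144 and 158 CPM in tumor (3.81 ± 0.10), the induced matrix protein Tgfbi went from 3.91 to 110.5 CPM and Bmp6 from 8.63 to 121. The BMP antagonist Chrd fell, from 71.9 to 15.4 CPM. Falls in the Notch, Wnt and TGF-beta lists were no more frequent than over all genes tested, of which 30.8% fell and 29.3% rose.

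Extracellular matrix genes were mostly higher. Of 11 fibrillar collagens 10 rose (median 4.93), with a summed level of 200 and 195 CPM in naive brain and 12485 and 12538 CPM in tumor. Col1a2 had 17.3 and 16.2 CPM in naive brain and 2312 and 2349 CPM in tumor (7.12 ± 0.06), and Col3a1 had 2.5 and 2.06 CPM in naive brain and 1743 and 1761 CPM in tumor (9.58 ± 0.13). Col2a1 and Col11a2, collagens of cartilage named after their values were seen, went from 1.43 to 92.8 and from 47.8 to 1463 CPM. The exception, Col24a1, fell from 18.3 to 3.62 (-2.34 ± 0.18). Of 24 other collagens 16 rose and 5 fell. Col9a1, which coats cartilage fibrils, had 0.833 and 1.04 CPM in naive brain and 496 and 507 CPM in tumor, Col9a3 went from 13.5 to 671 CPM (5.63 ± 0.09) and Col6a3 from 3.38 to 251 (6.21 ± 0.10). The transmembrane Col25a1 of neurons fell from 41 to 4.61 (-3.15 ± 0.11), with Col19a1, from 8.76 to 0.252, and Col22a1, from 4.77 to 0.961. Of 23 basement membrane genes 20 rose (median 2.92). Col4a1 had 75.4 and 78 CPM in naive brain and 825 and 858 CPM in tumor (3.46 ± 0.06), Hspg2, perlecan, went from 12.9 to 368 CPM (4.84 ± 0.08) and Col15a1 from 6.15 to 295 (5.58 ± 0.13). The laminin chains Lama3 and Lamb3 fell, from 6.74 to 3.94 and from 2.69 to 0.509 CPM. Lama3 lost its call without naive replicate 2 (edgeR adjusted p = 0.16).

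Fibroblast and meningeal markers rose in 9 of 12 cases, fell in 2 (1 without tumor replicate 1) and summed to 1201 and 1215 CPM in naive brain and 11301 and 11419.8 CPM in tumor. That list shares Col1a1, Col1a2 and Col3a1 with the collagens. Of 10 pericyte and smooth muscle markers 4 rose, 1 fell and 5 did not pass. The 1 that fell, Myh11, did not pass with library totals, without either naive library or without tumor replicate 2. Acta2, smooth muscle actin, had 9.45 and 11.4 CPM in naive brain and 10.7 and 13.1 CPM in tumor. What these cells contributed to the collagen levels was not tested.

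Integrins, the receptors for matrix, rose in 17 of 26 cases and fell in 1, the platelet subunit Itga2b (2 falls without naive replicate 2 or tumor replicate 1). Itgb1, the most widely shared subunit, had 46.6 and 43.3 CPM in naive brain and 376 and 389 CPM in tumor (3.09 ± 0.07), and Itgb5 went from 47.5 to 405 CPM (3.09 ± 0.06). Of 40 metalloproteases and inhibitors 24 rose, 10 fell, 3 did not pass and 3 had too few counts. Mmp2, a gelatinase, had 2.43 and 2.5 CPM in naive brain and 81.4 and 81.1 CPM in tumor (5.04 ± 0.13), and Mmp15 went from 14.8 to 154 CPM and the inhibitor Timp3 from 23.4 to 234. Mmp3, chosen after its value was seen, had 0 counts in naive brain and 28.2 and 26.7 CPM in tumor, at least 1250-fold higher. Mmp17 and Mmp24, which are expressed in neurons, fell from 169 to 17.1 and from 24.2 to 1.87 CPM. Mmp9 did not pass, with 1.72 and 2.22 CPM in naive brain and 1.02 and 1.03 CPM in tumor. Among 30 genes of heparan sulfate 17 rose and 10 fell. The shares of falls in that list and among the metalloproteases lay near the 30.8% of all genes tested. The core protein Sdc4 had 54.5 and 55 CPM in naive brain and 508 and 530.1 CPM in tumor (3.24 ± 0.06), and the sulfatases Sulf1 and Sulf2, which remove sulfate groups at the cell surface, went from 15.4 to 176 and from 84.3 to 439.8 CPM. Ndst4 had 26.5 and 25.1 CPM in naive brain and 0.116 and 0.136 CPM in tumor (-7.66 ± 0.25), and Hs3st2 had 36.4 and 38.6 CPM in naive brain and 0.347 and 0.295 CPM in tumor (-6.86 ± 0.22). Of 24 S100 proteins and annexins 12 rose, 2 fell (0 without naive replicate 2, 1 without tumor replicate 1) and 8 did not pass, with Anxa2 from 11.7 to 115 CPM (3.30 ± 0.10) and Anxa6 from 96 to 292.

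**Figure D4:**
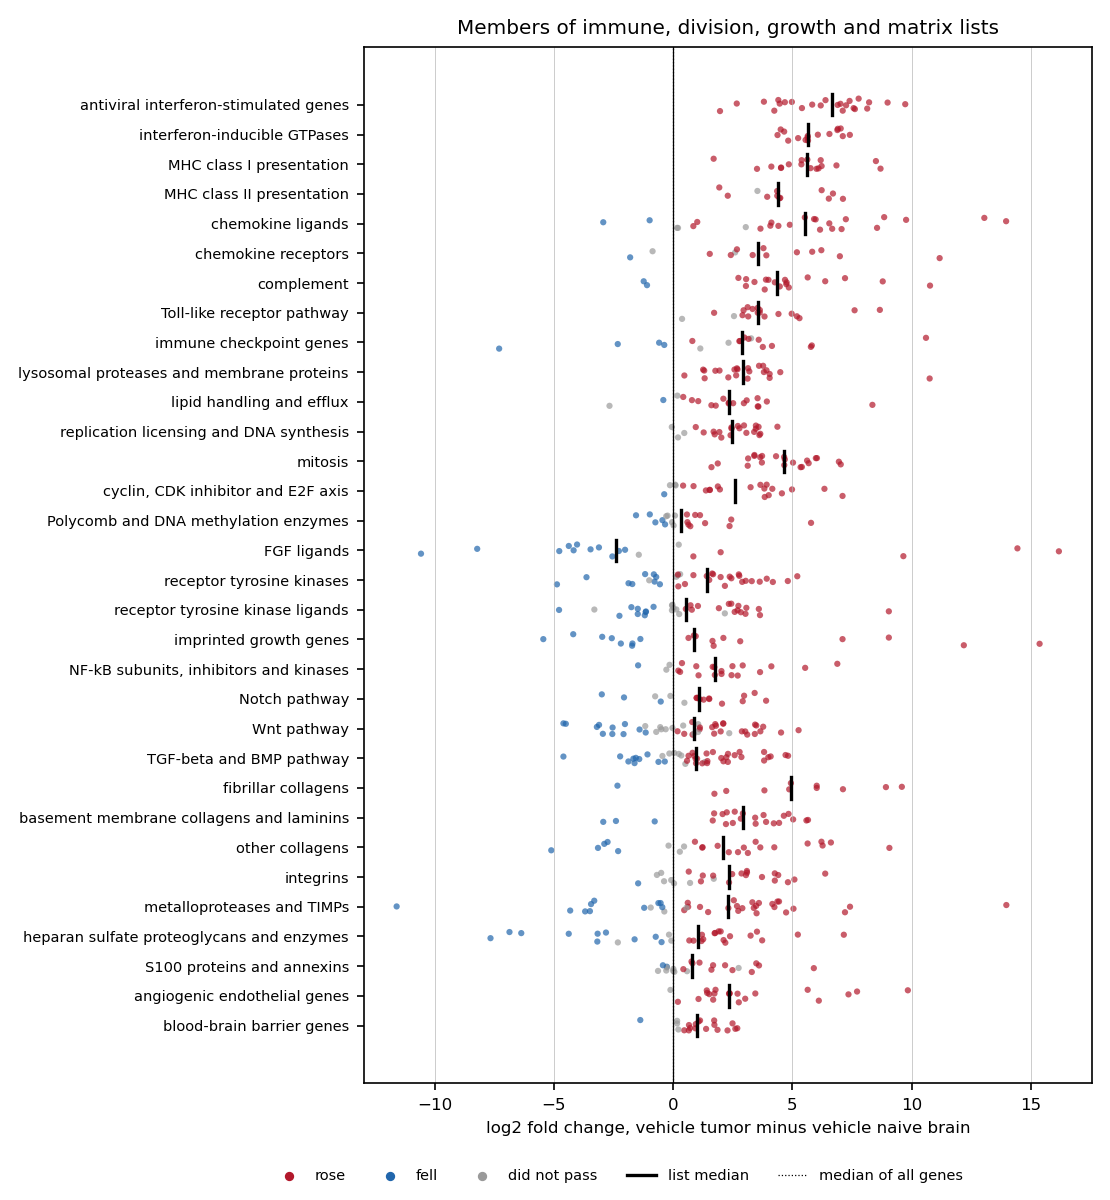
Log2 fold change of vehicle tumor over vehicle naive brain (x axis) for each tested member of the immune, division, growth and matrix lists (rows), 1 point a gene, red where it rose, blue where it fell and grey where it did not pass; black bars are list medians and the dotted line is the median of all genes. Interferon, MHC class I, lysosome and mitosis members all lie to the right, and FGF ligands lie mostly to the left with 3 members far to the right.

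Vessel genes were mostly higher. Of 21 genes of angiogenic endothelium 20 rose (median 2.35) and Apln did not pass, with 20.2 and 21.3 CPM in naive brain and 18.8 and 19.4 CPM in tumor. Icam1, an adhesion molecule for leukocytes that NF-kB induces, had 1.59 and 1.47 CPM in naive brain and 244 and 257 CPM in tumor (7.35 ± 0.11). Mcam went from 14.2 to 155 CPM (3.44 ± 0.09) and Vcam1 from 21.9 to 112 (2.35 ± 0.09). Blood-brain barrier genes rose in 16 of 20 cases (median 1.01) and fell in 1. The amino acid carrier Slc7a5 had 78.5 and 78.7 CPM in naive brain and 501 and 511 CPM in tumor (2.69 ± 0.07), and Slco2b1 went from 17.7 to 108 CPM. Slco1c1, a thyroid hormone carrier, fell from 58 to 22.3 (-1.38 ± 0.08). Slco1a4, Slc22a8 and Slc40a1 did not pass.

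Genes of radial glia and neural progenitors rose in 17 of 23 cases and fell in 4 (median 1.12). Vim, vimentin, had 41.6 and 42.2 CPM in naive brain and 1529 and 1566 CPM in tumor (5.21 ± 0.05), and Nes, nestin, had 12.1 and 9.24 CPM in naive brain and 97.6 and 101 CPM in tumor (3.22 ± 0.13). Sox4 went from 19.7 to 97.4 CPM (2.30 ± 0.08). The 4 that fell were Hes5, Hopx, from 15 to 7.74 CPM, Gli1, from 2.18 to 0.851, and the glutamate carrier Slc1a3, from 351 to 298. With library totals, the value of Slc1a3 turned from -0.24 ± 0.05 to 0.016 and did not pass. Eomes and Neurog2, factors of neuron-producing progenitors, did not pass.

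Motile cilia genes were mostly lower. Of 33 listed genes of motile cilia and ependyma 20 fell, 5 rose and 6 did not pass, with a median of -1.97, and their summed level was 119 and 105 CPM in naive brain and 66.8 and 68.7 CPM in tumor. Rfx3, a ciliary transcription factor that neurons also express, had 41 and 37.4 CPM in naive brain and 11.1 and 10.2 CPM in tumor (-1.88 ± 0.12), and Cfap44, an axonemal protein, had 4.52 and 3.89 CPM in naive brain and 0.347 and 0.397 CPM in tumor (-3.49 ± 0.29). Ccdc39 fell from 18.7 to 5.69 CPM. Foxj1, the master factor of motile cilia, did not pass, with 2.24 and 2.49 CPM in naive brain and 2.65 and 2.9 CPM in tumor. Risers were Rarres2, from 2.11 to 26.9 CPM, Rfx2, from 2.69 to 6.79, Dnah6, from 0.365 to 1.82, Cfap126, from 0.561 to 2.29, and Tmem212, which had 0 counts in naive brain and 0.241 CPM in tumor. Several members lie near the floor in both groups. Among the 31 tested, 7 had under 10 counts in each library of a vehicle group.

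Regional transcription factors of the forebrain moved in both directions. Of 60 homeobox and forebrain factors 20 rose, 15 fell, 14 did not pass and 11 had too few counts (median 0.37). Over all genes tested 29.3% rose and 30.8% fell, and the falls among the 49 members tested lay near that share. Of those 49, 11 had under 10 counts in each library of a vehicle group. Prrx1, a factor of mesenchyme, had 3.13 and 3.67 CPM in naive brain and 106 and 104 CPM in tumor (4.95 ± 0.15), and Six3, a factor of the rostral forebrain, had 1.64 and 2.38 CPM in naive brain and 38.2 and 40.3 CPM in tumor (4.29 ± 0.16). Hmx1, a factor of eye and ear, had 0 counts in naive brain and 58.6 and 53.4 CPM in tumor, at least 2552-fold higher. Dlx1, of inhibitory neurons, had 34.4 and 34.8 CPM in naive brain and 1.67 and 1.32 CPM in tumor (-4.54 ± 0.13), and Meis2 fell from 81 to 16 CPM (-2.34 ± 0.07).

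Axon guidance genes divided almost evenly, with 31 of 61 rising and 26 falling (median 0.30). The repellent Sema3f had 10.7 and 7.7 CPM in naive brain and 564 and 589 CPM in tumor (5.96 ± 0.12), the netrin Ntn1 had 8.5 and 9.09 CPM in naive brain and 152 and 156 CPM in tumor (4.13 ± 0.09), and the semaphorin receptor Plxnb2 went from 56.1 to 237 CPM (2.08 ± 0.07). Epha10 had 96.9 and 103 CPM in naive brain and 1.8 and 2.27 CPM in tumor (-5.62 ± 0.10), Ephb6 fell from 115 to 12.7 (-3.18 ± 0.08) and the ephrin Efnb3 from 92.4 to 3.92 (-4.56 ± 0.12).

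Neuronal genes fell together, against a background of 30.8% of all genes tested that fell. All 12 neuron markers fell (median -5.16; 11 without naive replicate 2 or tumor replicate 2), with summed levels of 6589 and 6513 CPM in naive brain and 521 and 525 CPM in tumor. Among 28 genes of synaptic vesicle release all 28 fell (median -4.71). Snap25, a membrane fusion protein of the terminal, had 2226 and 2132 CPM in naive brain and 43.1 and 45.8 CPM in tumor (-5.62 ± 0.06). Syt1, the calcium sensor, had 977 and 955 CPM in naive brain and 22.8 and 21.8 CPM in tumor (-5.44 ± 0.06), and the glutamate carrier Slc17a7 had 1698 and 1671 CPM in naive brain and 39.1 and 40.2 CPM in tumor (-5.41 ± 0.06). Neuropeptide precursors fell in 22 of 32 cases and rose in none, with 9 that did not pass. Among the 31 tested, 5 had under 10 counts in each library of a vehicle group. Penk had 111 and 109 CPM in naive brain and 2.82 and 3.07 CPM in tumor (-5.22 ± 0.07), Cck went from 410.5 to 15.6 CPM (-4.72 ± 0.06) and Chgb, of the granule core, from 375 to 14.4 (-4.71 ± 0.07).

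Rbfox3, the gene of the neuronal nuclear antigen NeuN, chosen after its value was seen, stood apart from the other neuron markers. It had 228 and 236 CPM in naive brain and 208 and 206 CPM in tumor (-0.17 ± 0.05, edgeR adjusted p = 0.014), and with library totals its log2 fold change turned to 0.087. Its call was lost without naive replicate 2 (0.13) or tumor replicate 2 (0.062). The other 11 markers fell by 2.50 log2 units (Map2) to 5.62 (Snap25). Cux2, a marker of upper cortical layers, also fell little, from 133 to 95.1 CPM (-0.49 ± 0.07).

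Receptors and channels fell with a few exceptions that rose. Of 26 glutamate receptor genes 22 fell and 2 rose (median -2.26). Grin2b had 152 and 160.3 CPM in naive brain and 4.39 and 4.88 CPM in tumor (-5.07 ± 0.08) and Gria1 had 253 and 254 CPM in naive brain and 30 and 30.7 CPM in tumor (-3.06 ± 0.06). Grm4, a presynaptic metabotropic receptor, rose with 26.4 and 24.2 CPM in naive brain and 204 and 198 CPM in tumor (2.99 ± 0.10), and Grin2d, an NMDA receptor subunit of immature brain and interneurons, rose with 18.8 and 17.8 CPM in naive brain and 134 and 145 CPM in tumor (2.93 ± 0.14). Of 30 genes of GABA and glycine signalling 23 fell and 2 rose (median -3.32). Gabbr2 fell from 232 to 6.54 CPM (-5.15 ± 0.07). The glial glycine carrier Slc6a9 rose from 23.1 to 53.3 (1.21 ± 0.08) and the receptor subunit Gabre from 0.16 to 1.41 (3.12 ± 0.47). With library totals 4 genes of this list rose. Slc6a13, Slc6a5 and the scaffold Gphn did not pass, and Gphn had 49.7 CPM in each library of naive brain and 47 CPM in each library of tumor.

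Potassium channels fell in 46 of 60 cases and rose in 9 (median -2.98). Kcnt1, a sodium-activated channel, had 237 and 242 CPM in naive brain and 9.5 and 9.14 CPM in tumor (-4.68 ± 0.06). The inward rectifier Kcnj12 rose with 8.38 and 7.73 CPM in naive brain and 145 and 154 CPM in tumor (4.21 ± 0.11) and Kcnk6 from 4.74 to 31.1 CPM (2.71 ± 0.16). Among 38 voltage-gated sodium and calcium channel genes 27 fell and 6 rose (median -2.86). Scn8a had 263 and 252 CPM in naive brain and 8.36 and 7.88 CPM in tumor (-4.99 ± 0.07). Scn7a, a glial sodium-sensing channel, rose with 3.39 and 3.72 CPM in naive brain and 101 and 111 CPM in tumor (4.90 ± 0.14), and the calcium channel subunit Cacna2d2 with 33.1 and 31.4 CPM in naive brain and 296 and 304 CPM in tumor (3.22 ± 0.07).

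Markers of cortical and striatal neurons all fell, most hippocampal ones did, and those of thalamus, midbrain and cerebellum were mixed. All 10 cortical excitatory markers and all 10 striatal markers fell, with summed levels in naive brain of 6208 and 6204 CPM and of 441 and 436 CPM, and in tumor of 346 and 352 CPM and of 26.7 and 29.0 CPM. Nrgn, a calmodulin-binding protein of dendrites, had 1599.7 and 1665 CPM in naive brain and 50 and 49.5 CPM in tumor (-5.04 ± 0.07), and Ppp1r1b, DARPP-32 of striatal neurons, had 159 and 163 CPM in naive brain and 6.63 and 7.95 CPM in tumor (-4.46 ± 0.09). Hippocampal and dentate markers fell in 9 of 10 cases. Thalamic and midbrain markers were low in naive brain, at 57.0 and 58.1 CPM in all, and 3 rose and 3 fell. Tcf7l2, which glia also express, rose from 4.46 to 42.4 CPM (3.25 ± 0.14), Prkcd from 12.8 to 115 (3.18 ± 0.12) and Gbx2 from 0.058 to 0.665, while Th, of dopamine neurons, fell from 5.42 to 0.148. Of 10 cerebellar markers 5 fell and 3 rose, the risers being Zic1, from 15.3 to 77.6 CPM, Zic2, from 8.31 to 63.6, and the homeobox gene Barhl1. Neuroblast markers fell in 8 of 12 cases, among them Dcx, from 29.2 to 2.78 CPM (-3.39 ± 0.15), and Stmn1, from 768 to 101 (-2.93 ± 0.05). Igfbpl1, Cd24a, Sox11 and Sp8 of that list rose, Igfbpl1 from 1.15 to 19.2 CPM (4.06 ± 0.29).

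The lists of reactive and of homeostatic astrocyte genes differed. The reactive list shares Vim with the radial glia list and Anxa2 with the annexins, and which cells made these transcripts was not tested. All 16 genes of reactive astrocytes rose (median 4.40), with summed levels of 253 and 251 CPM in naive brain and 7301 and 7407 CPM in tumor. Gfap, the astrocyte filament protein, had 143 and 144 CPM in naive brain and 2676 and 2735 CPM in tumor (4.24 ± 0.05), and Serpina3n, a secreted protease inhibitor, had 11.6 and 10 CPM in naive brain and 2024 and 2019 CPM in tumor (7.55 ± 0.08). Of 12 homeostatic astrocyte markers 8 fell and 2 rose (median -0.40), and with library totals 5 fell and 4 rose. The glutamate carrier Slc1a2 had 1474 and 1463 CPM in naive brain and 246 and 258 CPM in tumor (-2.54 ± 0.04), Ndrg2 fell from 618 to 158 CPM (-1.97 ± 0.05) and Glul, glutamine synthetase, from 1204 to 507 (-1.25 ± 0.04). The water channel Aqp4 rose from 78.6 to 167 (1.09 ± 0.08) and the potassium channel Kcnj10 from 102 to 203 (1.00 ± 0.06). Gja1 and Fgfr3 did not pass.

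Myelin genes fell while genes of oligodendrocyte precursors rose. Of 16 myelin and oligodendrocyte markers 14 fell (median -3.09). Mobp had 971 CPM in each library of naive brain and 14.1 and 14.2 CPM in tumor (-6.10 ± 0.05). The 2 that rose were Trf, transferrin, with 349 and 345 CPM in naive brain and 1636 and 1701 CPM in tumor (2.27 ± 0.04), and the myelin transcription factor Myrf, from 58.1 to 84.8 CPM (0.55 ± 0.07). Of 11 precursor markers 8 rose and 2 fell (median 1.26). Sox10 had 40.6 and 43.2 CPM in naive brain and 447 and 457 CPM in tumor (3.43 ± 0.08), the proteoglycan Vcan had 17.7 and 15.1 CPM in naive brain and 311 and 333 CPM in tumor (4.29 ± 0.10) and Cspg4, NG2, which pericytes also express, had 19.3 and 17.9 CPM in naive brain and 178 and 179 CPM in tumor (3.26 ± 0.08). Gpr17 and Bcas1, which mark cells on the way to myelination, fell from 30.8 to 12 and from 142 to 50.9 CPM, and Neu4 did not pass. Choroid plexus markers rose in 3 of 11 cases and fell in 2 (1 without naive replicate 2). Aqp1, a water channel, had 0.574 and 0.521 CPM in naive brain and 165 CPM in each library of tumor (8.23 ± 0.20), while Ttr, which defines choroid plexus, had 3.1 and 3.49 CPM in naive brain and 1.48 and 1.58 CPM in tumor (-1.11 ± 0.30).

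**Figure D5:**
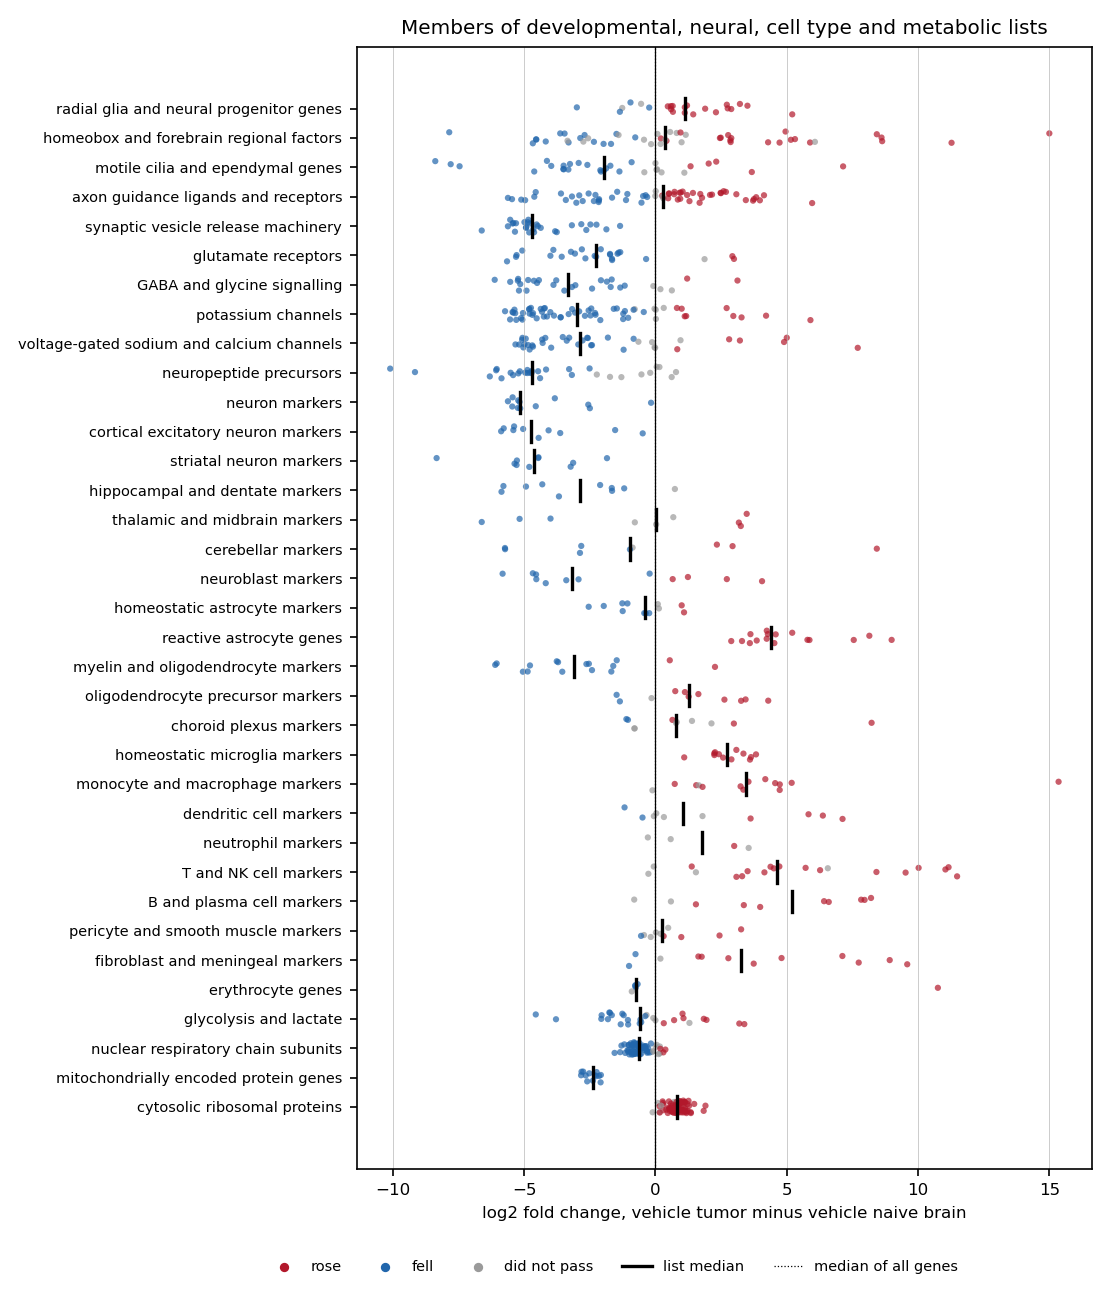
Log2 fold change of vehicle tumor over vehicle naive brain (x axis) for each tested member of the developmental, neural, cell type and metabolic lists (rows), 1 point a gene, red where it rose, blue where it fell and grey where it did not pass; black bars are list medians and the dotted line is the median of all genes. Synaptic and neuron rows lie to the left with Rbfox3 near 0, reactive astrocyte and microglia rows to the right, and ribosomal and respiratory chain genes form narrow clusters on either side of 0.

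Ribosomal and respiratory chain genes moved in opposite directions. Of 77 cytosolic ribosomal protein genes 72 rose and none fell (median 0.82), and summed levels were 15203 and 15633 CPM in naive brain and 28196 and 26965 CPM in tumor. Rplp0, of the ribosomal stalk, had 214 and 218 CPM in naive brain and 806 and 810.0 CPM in tumor (1.90 ± 0.06), Rpl18 went from 131 to 467 CPM (1.84 ± 0.07) and Rps4x from 235 to 569 (1.28 ± 0.05). Rpl24, Rpl37, Rpl38, Rps10 and Rps29 did not pass, although Rpl38 fell without tumor replicate 1 (edgeR adjusted p = 0.015). Ribosomal protein genes have many processed pseudogenes that could share reads with them. Of 66 nuclear genes for respiratory chain subunits 56 fell and 3 rose (median -0.64). Cox8a had 503 and 489.7 CPM in naive brain and 165 and 172 CPM in tumor (-1.56 ± 0.05), Cox4i1 fell from 538 to 257 CPM (-1.07 ± 0.05) and Atp5b from 1024 to 577 (-0.83 ± 0.04). The risers were Sdhd (0.38 ± 0.07), Sdhc (0.19 ± 0.06) and Ndufb11 (0.30 ± 0.06), and Sdhc lost its call without either naive library or without tumor replicate 2 (edgeR adjusted p = 0.12, 0.070 and 0.13). All 13 protein genes of the mitochondrial genome fell (median -2.38). The gene mt-Co1, for a subunit of cytochrome oxidase, had 43258 and 42157 CPM in naive brain and 8022 and 8378 CPM in tumor (-2.38 ± 0.03). With library totals, ribosomal genes gave 74 rises (median 1.07), nuclear subunits 44 falls and 8 rises (median -0.39) and mitochondrially encoded genes 13 falls (median -2.13), so these directions did not turn.

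Of 29 genes of glycolysis and lactate 17 fell and 8 rose (median -0.57). The neuronal enolase Eno2 fell from 820.5 to 34.9 CPM (-4.56 ± 0.06), the neuronal glucose carrier Slc2a3 from 122 to 8.88 (-3.79 ± 0.09) and Ldhb from 444 to 107 (-2.05 ± 0.05). Hk2, a hexokinase of growing tissue, rose with 3.19 and 2.53 CPM in naive brain and 29 and 30.7 CPM in tumor (3.38 ± 0.18), Pfkfb3, which drives glycolytic flux, with 22 and 20.9 CPM in naive brain and 73.6 and 80.2 CPM in tumor (1.84 ± 0.10), and the glucose carrier Slc2a1 from 149.7 to 245 CPM (0.71 ± 0.06). Of 8 erythrocyte genes 4 fell, the globins among them, such as Hba-a2 from 278 to 164 CPM (-0.76 ± 0.08), and Slc4a1 rose from 0 counts to 2.95 CPM in tumor. The globin genes are near-identical pairs.

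The same contrast within the MRX-2843 libraries differed from this one. A test of the difference, (tumor minus naive, vehicle) minus (tumor minus naive, MRX-2843), passed for 12563 genes (51.6%), 6162 positive (25.3%) and 6401 negative (26.3%). Among the 4 most positive and the 4 most negative values at a mean of at least 10 CPM, Dlk1 had 53.8 and 51.2 CPM in MRX-2843 naive brain and 2.64 and 3.12 CPM in MRX-2843 tumor, the opposite direction to the vehicle pair. H19, an imprinted non-coding RNA, had at most 1.78 CPM in any MRX-2843 library and 1301 CPM in each vehicle tumor library. Hs3st2 had 3.69 and 3.73 CPM in MRX-2843 naive brain and 17.3 and 23.6 CPM in MRX-2843 tumor, again opposite to the vehicle pair. In several lists the libraries labelled MRX-2843 tumor lay nearer to naive brain than to vehicle tumor. Neuron markers summed to 4296 and 4264 CPM in them, against 4838 and 4931 in MRX-2843 naive brain, antiviral genes to 175 and 171 against 144 and 135, and mitosis genes to 72.4 and 65.5 against 26.9 and 27.5. Whether these libraries hold mostly brain tissue or carry another group's label was not tested, and every difference between treatments given here rests on their labels. The naive libraries of the treatments differed as well, with striatal markers at 1981 and 1899 CPM in MRX-2843 naive brain and 441 and 436 CPM in vehicle naive brain, and erythrocyte genes at 77.5 and 73.4 against 939 and 1002 CPM. MRX-2843 libraries had 0 counts of Ddx3y and at least 25657 of Xist, and carry the number 909, so treatment, sex and that number cannot be told apart in this difference.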

How the data were processed

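RNA was sequenced from mouse tissue, with 2 libraries for each of 4 groups. Read counts per gene were deposited by the authors as 1 table of whole numbers. STAR 2.7.7a, SAMtools, Subread and featureCounts and the builds mm10 and hg38 are named per the submitters' processing notes, and the role of each build, the annotation and the strand setting are not given in the sources used here. The table was taken as deposited. Its 55414 gene IDs were matched by ID to GENCODE M21 (GRCm38), and 52133 matched. All 8 libraries entered 1 model of 4 group means in edgeR 4.0.16 (R 4.3.3), with TMM scaling, filtering by filterByExpr at a minimum count of 10 and the quasi-likelihood test with 4 residual degrees of freedom, so that all groups shared 1 estimate of the spread (common biological coefficient of variation 21.0%). Standard errors are the log2 fold change divided by the root of the F statistic. The Benjamini-Hochberg threshold was 0.05 over 24356 genes.

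The model was tested on simulated data of 22015 genes with 50 changed at each size. For the vehicle comparison it recovered 62% of genes lowered and 84% of genes raised by 2 log2 units, 50% of those lowered and 48% of those raised by 1 log2 unit, with 7 false calls. In the measured data 60.1% of the genes tested differed, a far larger share than was changed there. Recovery, false calls and the assumption behind TMM were not tested at such a share. Library totals were 70147859 to 78084664 in the vehicle groups. Floors and bounds at 3 counts cover counting error only.

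The comparison, its 67 gene lists (1511 genes) and the rule for named genes were chosen with earlier results of these data known, so a list's counts are a description and not independent evidence. The rule took the 10 largest rises and falls in mean CPM and in log2 fold change (in the latter only with 10 counts in each vehicle library), the list members with the smallest adjusted p (up to 3 in each direction) and those of small remainders, the genes within 1 Mb of Ccnd1, the largest differences between treatments and a few control genes. Those largest rises and falls were taken only from genes that passed the test and whose groups did not overlap. Other genes named for their role were chosen after their values were seen. Same-numbered libraries of naive brain and tumor did not deviate together (correlation of deviations -0.03 over 16489 genes), so the replicate numbers were not taken as pairs. Promoter windows came from RefSeq tables of GRCm38.p6. Alternatives were DESeq2 1.42.0, other scalings and filters, a replicate block, the 4 vehicle libraries alone, each vehicle library left out in turn and a fold minimum. Leaving out mitochondrially encoded genes or both MRX-2843 tumor libraries was added after seeing the data. Some genes that the rule names are not reported here.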

Additional observations from a re-analysis of the deposited data

Results flagged for a closer look

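The tumor minus naive difference of the vehicle libraries differed from that of the MRX-2843 libraries, by edgeR's test of the difference itself, for 12563 genes. The genes with the 4 most positive and the 4 most negative differences, at a mean of at least 10 CPM, are given with the value of the difference (log2 ± SE). Fgf15 differed by 22.58 ± 1.81 (edgeR adjusted p = 2.39e-07), a fitted value that rests on 0 counts in vehicle naive brain and MRX-2843 tumor and is no bound. Dlk1 differed by 16.37 ± 0.16 (edgeR adjusted p = 1.5e-17) and H19 by 13.75 ± 0.80 (1.25e-09). The value for Plac8, 13.87 ± 0.98 (edgeR adjusted p = 2.7e-08), is likewise a fitted value, with 0 counts in vehicle naive brain, and no bound, and that for H19 rests on 0 and 4 counts there. Smim43 differed by -10.42 ± 0.48 (edgeR adjusted p = 7.39e-11), Hs3st2 by -9.32 ± 0.27 (3.69e-13), Igfn1 by -9.17 ± 0.62 (7.04e-09) and Hkdc1 by -8.63 ± 0.33 (8.37e-12). Hkdc1, a hexokinase-like enzyme, had 0.615 and 1.13 CPM in MRX-2843 naive brain and 19.9 and 20.6 CPM in MRX-2843 tumor. Igfn1 had 3.4 and 3.66 CPM in MRX-2843 naive brain and 25.6 and 25.4 CPM in MRX-2843 tumor. The vehicle tumor libraries held 3 and 90 counts of Igfn1 and 12 and 48 of Smim43, so the values of both genes rest on low and unequal counts there. Treatment, the sex that Ddx3y and Xist point to and the column number differ together between these libraries and cannot be told apart. The libraries labelled MRX-2843 tumor had neuron, antiviral and mitosis sums nearer to naive brain than to vehicle tumor, and whether they hold mostly brain tissue or carry another group's label was not tested.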

How the results depend on the processing

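The count of changed genes lay between 13098 (without naive replicate 2) and 14932 (only the 4 vehicle libraries) under the alternatives that kept the rule for a call, with 13098 to 13446 when 1 vehicle library was left out, of which 6365 to 6499 rose and 6733 to 6988 fell. A group left with 1 library was taken to have the spread of the other groups. With DESeq2 14689 genes changed, and with a minimum of 1 log2 unit 9796 did, 4643 higher and 5153 lower. Scaling by library totals made 58.4% of the calls rises, against 48.7% with TMM. The count for the difference between treatments lay between 8894 and 12936. The replicate block gave 14120 changed genes (6928 higher, 7192 lower) and 12113 for the difference between treatments, and ended 1 call among the 348 named genes, that of Faddos.

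Of the named genes 3 turned in direction, all with library totals: Rbfox3 (0.087), Slc1a3 (0.016) and Gphn (0.17, edgeR adjusted p = 0.048). The cause of these turns was not tested, and that scaling moved the median over all genes tested by 0.24. With it 14 of the named genes that had not passed did so, and 6 lost their call without turning. Leaving out both MRX-2843 tumor libraries ended no call of a named gene and added 5. Genes given as not passing that passed (edgeR) with 1 library left out were Apoa1, Chil3 (0.0390), Gzmk (0.014), H2-Eb2 (0.011), Rpl24 (0.044), Tigit (0.017) and Tlr8 (0.036) without naive replicate 1, Chil3, Gmnn (0.040), Rpl38, Slc22a8 (0.045) and Slco1a4 (0.045) without tumor replicate 1, and H2-Eb2 (0.034), Rpl37 (0.015) and Rps29 (0.00063) without tumor replicate 2. H2-Eb2 also passed with DESeq2 (0.034). With only the 4 vehicle libraries 10 named genes that had not passed did so. Among these were Cxcl1 (edgeR adjusted p = 0.010), Ifng (0.015) and Camp (0.048). The cause was not tested. Depth limits genes near 0.04 CPM, where a library's count is about 3.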
